A study of Mus musculus with 8 samples.

Results

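The Kruppel-like factors described here were Klf2, Klf3, Klf4, Klf6, Klf7, Klf9, Klf10, Klf11, Klf13 and Klf15. These 10 genes were taken from the count table by their symbols, out of 54532 genes. The RNA came from lung endothelial cells (ECs) of wild-type (WT) C57BL/6J mouse pups at day 14 after birth. Pups of the control group were reared in normoxia (room air, 21% O2), and pups of the other group in hyperoxia (80% O2), both from day 0 to day 14, and no other allele or agent is given for either group. Lung cells were depleted of CD45-positive leukocytes, and cells retained by beads directed at CD31, a surface protein of ECs, were sequenced in bulk in 4 libraries per group. Beads of this kind enrich ECs of every vessel type and can carry other lung cells along.

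KLF proteins are transcription factors with zinc fingers at the C-terminus, which bind GC-rich and CACCC sequences. In ECs, Klf2 and Klf4 are known for their response to laminar blood flow, which reaches their promoters through the kinases MEKK3, MEK5 and ERK5 and the transcription factor MEF2. Both are known to raise genes of the quiescent, anti-thrombotic vessel wall and to lower inflammatory ones, whereas several other members act as repressors together with CtBP or Sin3 proteins.

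The 8 libraries held between 16098086 and 18300730 counts. The 12 pan-endothelial markers, led by Cdh5 and Pecam1, summed to 17990 to 19000 CPM (counts per gene after scaling every library to the same TMM-adjusted total) in normoxia and 18178 to 19145 CPM in hyperoxia, so the EC label fitted its markers. Of these 12 markers 5 rose and 3 fell, so the similar sums do not show an unchanged EC content. All 10 alveolar type 2 epithelial markers were higher in hyperoxia, with sums of 251 to 353 CPM in normoxia and 783 to 2333 CPM in hyperoxia. Library hyperoxia 3 stood apart at 783 CPM, while the other hyperoxia libraries reached at least 2053 CPM. Of the fibroblast markers 5 of 8 tested rose (sums of 147 to 289.9 CPM in normoxia and 224 to 530 CPM in hyperoxia), of the mural markers 5 of 8 (24.1 to 49.96 and 44.9 to 106 CPM), and of the alveolar type 1 markers 8 of 8. Hyperoxia 3 was the lowest library of its group for each of these sums too. Within the endothelium, 7 of 8 general capillary and 5 of 8 arterial markers fell, while 7 of 8 aerocyte capillary, 5 of 6 venous and 6 of 7 lymphatic markers rose. The share of mitochondrial counts was 0.864% to 1.05% in normoxia and 1.21% to 1.43% in hyperoxia. The part of these shifts in the KLF results was not tested, except where a value is given. In bulk RNA, fewer cells of a type and less RNA per cell cannot be told apart. The labels do not state that each library came from a separate pup, so p-values measure only the spread between these libraries.

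Promoter sequence from RefSeq (build GRCm38.p6) was at hand for 9 of the 10 members, as windows of 250 bases before and 50 bases after the start. Stretches of 160 bases upstream of the annotated exons are shown 5′ to 3′ on the gene's strand for Klf2 and Klf4, the flow-responsive pair of ECs, and for Klf9 and Klf15, whose fold changes between the groups were the highest. Capitals mark the MEF2 site in Klf2 and the CACCC box, read on either strand, in Klf9 and Klf15.
Klf2, chr8:72318873-72319032, plus strand: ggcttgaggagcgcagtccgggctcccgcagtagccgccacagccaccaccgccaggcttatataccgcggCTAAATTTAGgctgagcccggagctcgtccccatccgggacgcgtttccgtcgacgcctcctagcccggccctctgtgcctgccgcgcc
Klf4, chr4:55532476-55532635, minus strand: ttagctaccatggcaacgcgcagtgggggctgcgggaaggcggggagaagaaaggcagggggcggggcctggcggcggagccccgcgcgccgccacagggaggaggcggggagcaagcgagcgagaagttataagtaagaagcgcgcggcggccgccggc
Klf9, chr19:23141066-23141225, plus strand: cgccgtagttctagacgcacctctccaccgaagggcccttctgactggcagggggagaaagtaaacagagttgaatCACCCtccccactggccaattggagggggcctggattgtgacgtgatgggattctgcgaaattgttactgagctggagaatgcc
Klf15, chr6:90462416-90462575, plus strand: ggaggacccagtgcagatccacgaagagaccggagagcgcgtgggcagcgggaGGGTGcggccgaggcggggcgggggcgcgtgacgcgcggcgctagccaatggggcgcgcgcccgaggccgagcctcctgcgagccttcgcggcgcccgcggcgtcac

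The MEF2 site CTAAATTTAG began 118 bases upstream of the RefSeq start of Klf2, and no other member promoter held a MEF2 site in its window. Over all 32851 promoter windows, 3.19% held such a site. The CACCC box stood in 6 of the 9 member windows and in 57.5% of all windows. CACGTG was found in 4 of 9 (Klf4, Klf6, Klf11 and Klf15) and in 7.15% of all windows, TGACG in 6 of 9 and 20.8%, and ACGTG, which lies within every CACGTG, in 5 of 9 and 19.6%. GTAAACA stood in Klf9 alone of the 9 and in 3.65% of all windows, whereas TATAAA (13.6% of all windows) and the CArG box (1.63%) were found in 0 of 9. All searches covered both strands. These matches describe letters and are not evidence of binding.

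On FPKM, the deposited value per gene length, Klf2 and Klf4 were by far the most abundant members. Klf2 reached 247 ± 19.8 FPKM in normoxia and 312 ± 26.2 FPKM in hyperoxia (SD, n = 4), and Klf4 233 ± 20.9 and 253 ± 26.4 FPKM. They ranked 102 and 113 in normoxia, and 86 and 112 in hyperoxia, among 22046 protein-coding genes. Together they made up 66.7% to 71.0% of the summed FPKM of the members in every library. The ranges of Klf2 and Klf4 overlapped in normoxia but not in hyperoxia.

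Klf6 came next, at 56.5 ± 9.15 FPKM in normoxia and 76.0 ± 5.10 FPKM in hyperoxia, apart from its neighbours in both groups. Klf3 (32.3), Klf10 (30.1), Klf11 (26.2), Klf13 (25.8), Klf9 (22.5) and Klf7 (18.3 FPKM) followed in normoxia. In this order, Klf3 overlapped Klf10, Klf11 overlapped Klf13, Klf13 overlapped Klf9 and Klf9 overlapped Klf7, whereas Klf10 stood above Klf11 in all normoxia libraries. In hyperoxia Klf9 was the fourth member at 38.2 ± 3.83 FPKM, up from rank 8, and did not overlap Klf13 below it. Klf13 (31.0), Klf10 (30.9), Klf3 (28.9), Klf7 (26.4) and Klf11 (24.5 FPKM) followed, each overlapping its neighbour in this order. Klf15 was close to the limit of detection, with 0.104 ± 0.0723 FPKM in normoxia and 0.484 ± 0.184 FPKM in hyperoxia. The deposited gene model of Klf9 was shorter (3263 bases) than its merged exons in GENCODE M21 (4815 bases), so its place in this order depends on the model.

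**Figure D1:**
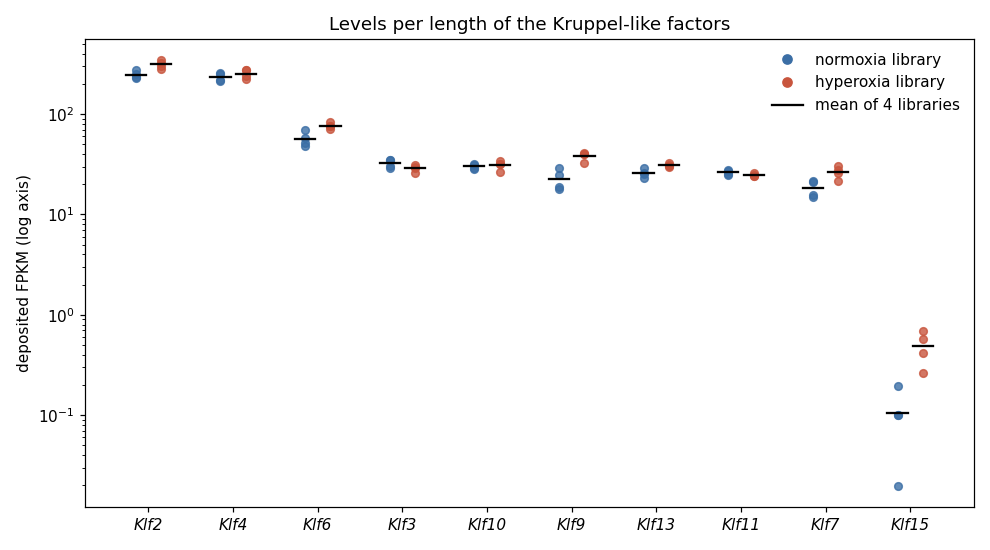
Deposited FPKM (log axis) of each member in the 4 normoxia and 4 hyperoxia libraries, with the mean as a line. Klf2 and Klf4 lie above 200 FPKM in every library, Klf6 follows at 48.4 to 82.8, and Klf15 stays below 0.7.

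Hyperoxia changed 6 of the 10 members at an adjusted p under 0.05 in edgeR's quasi-likelihood test, and all 6 rose: Klf2, Klf6, Klf7, Klf9, Klf13 and Klf15. Of all 15564 genes tested, 35.6% passed this test, 18.5% upwards and 17.1% downwards. No member passed downwards in edgeR or DESeq2, and at an unadjusted p under 0.05 in edgeR 1 member, Klf3, was lower. Only Klf15 also reached an absolute log2 fold change of 1, which 6.98% of all genes did. All 10 members passed the filter on low counts, Klf15 only through its hyperoxia libraries. Among the 9 members that averaged 50 CPM or more, which leaves out Klf15, 5 passed the test (55.6%), all upwards, beside 50.7% of all 4409 genes at that level, 23.0% upwards and 27.6% downwards. The share that changed was therefore close to that of equally abundant genes. The median log2 fold change was 0.30 over the members and -0.0040 over all genes tested. In 5 members, Klf15 among them, the groups did not overlap, all with hyperoxia higher, and 17.8% of all genes showed this. In either direction, the groups did not overlap in 35.4% of all genes and in 50.3% of genes at 50 CPM or more. Of all 436 tested genes that the deposited table assigns to the C2H2 zinc finger family, 27.8% passed, 9.17% upwards and 18.6% downwards.

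With a score of the alveolar type 2 markers as a further term, 0 members passed the edgeR test, and 256 of all genes did. At an unadjusted p under 0.05, 2 members, Klf7 (adjusted p = 0.324) and Klf9 (adjusted p = 0.156), passed that edgeR fit. The share of all genes at this unadjusted level was not counted, so these 2 cannot be set against it. The score did not overlap between the groups (3.50 to 4.08 in normoxia, 5.08 to 6.47 in hyperoxia, as mean log2 CPM), so that score and hyperoxia can hardly be told apart. The log2 fold changes in that fit were 0.36 (SE 0.302) for Klf6 and 0.92 (SE 0.373) for Klf7, and those of the other members that had passed are given with each gene. Leaving out hyperoxia 3, which has the lowest score of its group, widens the gap in this score between the groups, and 6 members passed then.

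**Figure D2:**
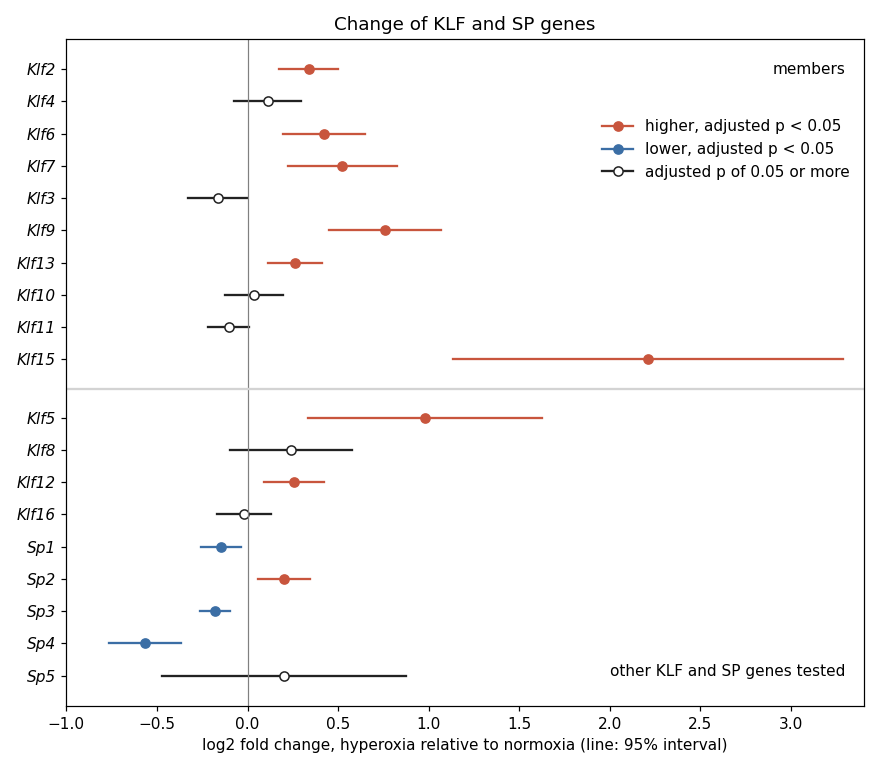
Log2 fold change of hyperoxia relative to normoxia for the 10 members and the 9 other KLF and SP genes tested, with 95% intervals from edgeR; filled points passed an adjusted p of 0.05. Members that passed lie to the right of 0, while Sp1, Sp3 and Sp4 lie to the left.

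Klf2 rose and Klf4 did not pass the test. Klf2 lies on chromosome 8 (72319033 to 72321656, GRCm38, plus strand) and carries the MEF2 site shown above. It measured 463, 512, 438 and 425 CPM in the normoxia libraries 1 to 4 and 561, 595, 524 and 639.9 CPM in the hyperoxia libraries, without overlap. The log2 fold change of Klf2 was 0.34 (SE 0.0741, adjusted p = 0.00489), a rise of 26.3% with a 95% interval of 12.7% to 41.5%. Klf4, on chromosome 4 (55527143 to 55532466), is best known as a pluripotency factor and, in ECs, as the partner of Klf2. It measured 672, 766, 651 and 782 CPM in normoxia and 688, 842, 727 and 845 CPM in hyperoxia, and the groups overlapped. The log2 fold change of Klf4 was 0.11 (SE 0.0840, adjusted p = 0.332), with an interval from -5.0% to 22.9% that overlaps the interval of Klf2.

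The Klf2 to Klf4 count ratio compares the pair within each library. The mean ratio increased from 0.643 ± 0.0673 to 0.750 ± 0.0486 (SD, n = 4), and all hyperoxia libraries (0.707 to 0.816) lay above all normoxia libraries (0.543 to 0.690). The exact two-sided permutation p was 0.0286, the smallest that 4 against 4 libraries allow, and 0.0571 after adjustment over the 4 pairs of related members examined, which were chosen after their values were seen.

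Klf6 and Klf7, which share a closely similar zinc finger region, both rose. Klf6, on chromosome 13 (5861482 to 5870394), is known as a gene induced by tissue injury. It measured 213, 307, 226 and 254 CPM in normoxia and 367, 332, 310.1 and 333 CPM in hyperoxia. Normoxia 2 was close to hyperoxia 3, but the groups did not overlap, and the log2 fold change was 0.42 (SE 0.103, adjusted p = 0.00833). Klf7, on chromosome 1 (64029447 to 64122282), is known for its part in axon growth. It measured 121, 178, 129 and 172 CPM in normoxia and 176, 249, 225 and 213 CPM in hyperoxia. Hyperoxia 1 lay just below normoxia 2, and the log2 fold change of Klf7 was 0.52 (SE 0.137, adjusted p = 0.0124). Of the exon bases of Klf7, 39.3% are shared with Gm26649 on the opposite strand, which had 0 counts in all libraries. The use of strand in counting was not given in the sources used here, so reads of the shared bases cannot be told apart. The Klf6 to Klf7 ratio overlapped between the groups (exact permutation p = 0.571).

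**Figure D3:**
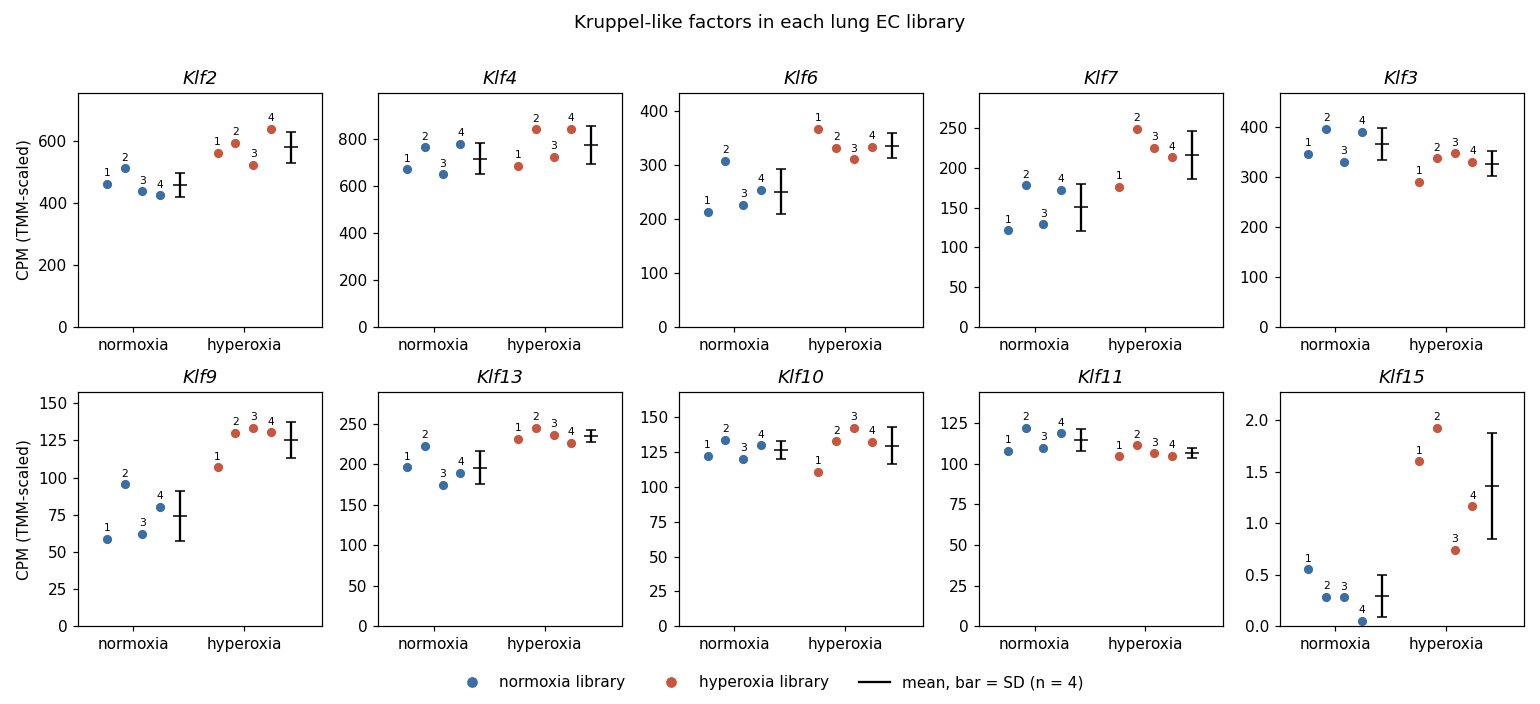
CPM of each member in every library (points, numbered by replicate) with the mean and SD of each group (n = 4); every axis starts at 0. The groups are apart in Klf2, Klf6, Klf9, Klf13 and Klf15, and nearly so in Klf7, while Klf3, Klf4, Klf10 and Klf11 overlap.

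Klf9 and Klf13, related repressors that bind Sin3A, both rose, Klf9 more steeply. Klf9 (chromosome 19, 23141226 to 23166911) is known to be induced by glucocorticoid and thyroid hormone. It measured 58.6, 95.4, 62.2 and 80.2 CPM in normoxia and 107, 130.3, 133 and 130.4 CPM in hyperoxia, without overlap. Its log2 fold change of 0.76 (SE 0.140, adjusted p = 0.00177) was the highest among the members that averaged 50 CPM or more, and amounted to a rise of 69.0% with an interval of 36.4% to 109%. Its spread in normoxia was also the widest of these members, at 23.0% of the mean, and 9.80% in hyperoxia. Klf13 (chromosome 7, 63886351 to 63938915) is known as a regulator of the chemokine RANTES in T cells. It measured 196, 223, 175 and 189 CPM in normoxia and 231, 245, 236 and 226 CPM in hyperoxia, and the groups did not overlap. The log2 fold change of Klf13 was 0.26 (SE 0.0682, adjusted p = 0.0121).

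The Klf9 to Klf13 ratio rose from 0.377 ± 0.0616 to 0.534 ± 0.0511 (SD, n = 4), with no overlap between the groups. Its exact permutation p was 0.0286, and 0.0571 over the 4 pairs. Under the further term for alveolar type 2 markers the log2 fold change of Klf9 was 1.23 (SE 0.368, adjusted p = 0.156) and that of Klf13 0.29 (SE 0.198, adjusted p = 0.595), while that of Klf2 was 0.04 (SE 0.194, adjusted p = 0.952).

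**Figure D4:**
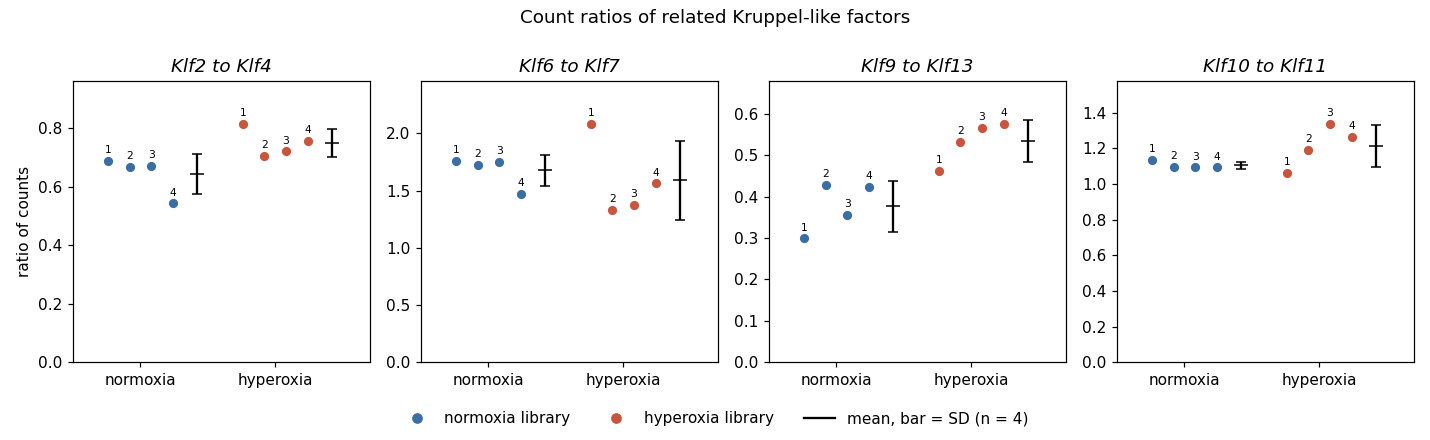
Ratio of the counts of related members within each library (points, numbered by replicate), with the mean and SD of each group (n = 4). Klf2 to Klf4 and Klf9 to Klf13 are higher in all hyperoxia libraries, whereas the ratios of Klf6 to Klf7 and Klf10 to Klf11 overlap.

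Klf15 was the member with the highest fold change and the lowest level. Klf15 (chromosome 6, 90462576 to 90475238) is known as a glucocorticoid-induced regulator of amino acid and glucose metabolism. Its raw counts were 9, 5, 5 and 1 in normoxia and 28, 34, 13 and 21 in hyperoxia, which corresponds to 0.293 ± 0.203 and 1.36 ± 0.515 CPM (SD, n = 4). The groups did not overlap, and the log2 fold change was 2.21 (SE 0.487, adjusted p = 0.00494). As Klf15 passed the filter on low counts only through hyperoxia, both results depend on its being high there and are no independent support. Hyperoxia 3 was the lowest of its group for Klf15, as it was for the summed markers of alveolar type 2 and type 1 cells, fibroblasts, mural cells and leukocytes. With the alveolar type 2 score as a further term the log2 fold change of Klf15 was -0.18 (SE 1.14, adjusted p = 0.962).

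Klf3, Klf10 and Klf11 did not pass the test. Klf3 (chromosome 5, 64803388 to 64832901), a repressor that recruits CtBP, measured 347, 397, 330.3 and 390.4 CPM in normoxia and 290.2, 338, 347 and 330.2 CPM in hyperoxia. The groups overlapped, and the log2 fold change of Klf3 was -0.17 (SE 0.0741, unadjusted p = 0.0479, adjusted p = 0.107). Without normoxia 3 it passed as lower (adjusted p = 0.0453). Gm20033 on the opposite strand shares 3.59% of the exon bases of Klf3, at a mean of 1.33 CPM. Klf10 and Klf11 are known as TGF-beta-inducible early genes. Klf10 (chromosome 15, 38291463 to 38300706) measured 123, 134, 120.2 and 129.8 CPM in normoxia and 111, 133, 143 and 133 CPM in hyperoxia. The log2 fold change of Klf10 was 0.03 (SE 0.0725, adjusted p = 0.744), with an interval from -8.3% to 14.5%. Klf11 (chromosome 12, 24651274 to 24662789) measured 108, 122, 109.98 and 119 CPM in normoxia and 105, 111, 107 and 105 CPM in hyperoxia. The log2 fold change of Klf11 was -0.10 (SE 0.0509, adjusted p = 0.142), with an interval from -13.9% to 0.66%. Within hyperoxia, Klf11 was the steadiest member, with an SD of 2.98% of its mean.

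Several members shared a pattern among libraries of the same group, which was noticed after the values were seen. Normoxia 2 and normoxia 4 both lay above normoxia 1 and normoxia 3 in 7 of the 10 members (Klf3, Klf4, Klf6, Klf7, Klf9, Klf10 and Klf11), and in 24.8% of all genes tested. Hyperoxia 1 was the lowest of its group in 6 members (Klf3, Klf4, Klf7, Klf9, Klf10 and Klf11), and in 28.3% of all genes. The sum of 23 immediate early genes followed the same order in normoxia, with 7814, 9500, 7707 and 8796 CPM in libraries 1 to 4. In hyperoxia it was 8752, 9202, 8858 and 9599 CPM, again lowest in library 1. Most other lists described below did the same. Normoxia 2 and 4 lay above 1 and 3 in the sums of other KLF and SP genes, flow sensing, cofactors and clock genes. The sums of genes raised or lowered by KLF2 or KLF4 did so too. Hyperoxia 1 was also lowest in the sums of flow sensing, raised, clock, and other KLF and SP genes. Sums of glucocorticoid- and TGF-beta-induced genes lacked the normoxia order. General capillary and arterial marker sums were likewise higher in normoxia 2 and 4 (9329 and 9194 CPM against 8283 and 7915 CPM for capillaries). The part of these differences in the spread of the members was not tested.

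Among the other KLF and SP genes, 9 of 16 passed the filter on low counts, 3 rose and 3 fell. Counts of this list and those below stand beside 35.6% of all genes tested (18.5% upwards, 17.1% downwards). At 50 CPM or more, 50.7% of all genes passed (23.0% upwards, 27.6% downwards). Klf5, a factor of epithelial and smooth muscle cells, was at 1.60 ± 0.295 CPM in normoxia and rose to 3.15 ± 1.15 CPM (0.98 on the log2 scale, SE 0.292, adjusted p = 0.0231). The other genes that rose, Klf12 (0.26, adjusted p = 0.0217) and Sp2 (0.20, adjusted p = 0.0341), are named after their values were seen. Sp1 and Sp3, ubiquitous activators that bind the same GC boxes as KLF proteins, fell by 0.15 (SE 0.0498, adjusted p = 0.0391) and by 0.18 (SE 0.0383, adjusted p = 0.00410) on the log2 scale. Sp4, a related factor of neurons and other cells, fell from 40.5 ± 5.56 to 27.3 ± 0.857 CPM (-0.57 on the log2 scale, SE 0.0902, adjusted p = 0.000706). Klf16, at 38.8 ± 1.29 and 38.2 ± 3.38 CPM, did not pass (adjusted p = 0.846). The list was sensitive to single libraries: 3 genes passed without normoxia 3 or hyperoxia 2 and 2 without hyperoxia 4. Adjusted p exceeded the threshold for Klf5 without normoxia 2, 3 or 4 or hyperoxia 1 or 4 (up to 0.0657), for Sp1 without any library but normoxia 1 or 3 (up to 0.106), for Klf12 without normoxia 3 or hyperoxia 2 or 4 (up to 0.0684), and for Sp2 without any library but normoxia 2 or 4 or hyperoxia 1 (up to 0.0987).

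Genes that sense flow or control Klf2 and Klf4 changed in both directions, with 9 of 26 higher and 7 lower, and a median log2 fold change of 0.01. P2ry2, a receptor for extracellular ATP, rose from 26.4 ± 6.52 to 74.1 ± 14.8 CPM (1.48, SE 0.183, adjusted p = 0.000135). Heg1, the transmembrane partner of the CCM proteins, which restrain the MEKK3 pathway, rose from 969 ± 48.9 to 1188 ± 87.4 CPM (0.29, SE 0.0616, adjusted p = 0.00370). Hdac7, a deacetylase that represses MEF2, fell from 701 ± 31.2 to 565 ± 16.4 CPM (-0.31, SE 0.0467, adjusted p = 0.000480). Sirt1, another deacetylase, fell from 71.7 ± 3.05 to 42.7 ± 3.26 CPM (-0.75, SE 0.0626, adjusted p = 9.2e-06). Other genes of this list are also named after their values were seen. Of the MEF2 genes, Mef2d rose (0.27, SE 0.0529, adjusted p = 0.00269), while Mef2a (adjusted p = 0.381) and Mef2c (adjusted p = 0.884) did not pass. Piezo1, a flow sensor, rose (0.34, SE 0.0745, adjusted p = 0.00508). The kinases of the route named above were lower in hyperoxia. Map3k3 (MEKK3) fell from 207 ± 7.70 to 177 ± 8.24 CPM (-0.23, SE 0.0483, adjusted p = 0.00404), and Mapk7 (ERK5) from 57.0 ± 2.60 to 46.3 ± 2.26 CPM (-0.30, SE 0.0542, adjusted p = 0.00157). Map2k5 (MEK5) fell from 34.4 ± 1.08 to 30.8 ± 0.809 CPM (-0.16, SE 0.0513, adjusted p = 0.0323), a call that was lost in DESeq2 (adjusted p = 0.0684) and without normoxia 1 or 2 or hyperoxia 1, 2 or 4 (up to 0.0987). Plxnd1, a flow sensor at the cell surface, measured 789 ± 45.5 and 814 ± 54.9 CPM (adjusted p = 0.597).

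Of the genes that KLF2 or KLF4 is known to raise in ECs, 18 of 20 were tested, 3 rose and 6 fell, with a median log2 fold change of -0.0099. The list shares Tek, Tie1 and Cdh5 with the pan-endothelial markers, Plvap with the general capillary markers, and Gja4 and Gja5 with the arterial markers. Of these shared genes Tek, Tie1 and Gja4 fell, and the others did not pass. The part of the marker shifts in this list was not tested. Tek, the angiopoietin receptor, fell from 1182 ± 68.2 to 682 ± 49.8 CPM (-0.79, SE 0.0630, adjusted p = 6.3e-06). Aqp1, a water channel of capillaries, fell from 2571 ± 54.0 to 1666 ± 75.8 CPM (-0.63, SE 0.0464, adjusted p = 3.9e-06). Adamts4, a protease of the matrix, rose from 4.67 ± 0.799 to 11.8 ± 3.76 CPM (1.34, SE 0.242, adjusted p = 0.00156). Cdh5 (adjusted p = 0.658) and Plvap (adjusted p = 0.884) did not pass. The genes that follow were chosen for mention after their values were seen. S1pr1 rose from 580 ± 53.3 to 936 ± 38.1 CPM (0.69, SE 0.0667, adjusted p = 2.5e-05). Rapgef3 rose from 147 ± 6.13 to 223 ± 12.5 CPM (0.60, SE 0.0525, adjusted p = 1.2e-05). Nos3, the endothelial nitric oxide synthase, and Thbd, thrombomodulin, are among the best-known targets. Nos3 measured 122 ± 6.65 CPM in normoxia and 125 ± 10.5 CPM in hyperoxia (adjusted p = 0.714), and Thbd 1442 ± 66.8 and 1559 ± 129.8 CPM (adjusted p = 0.200).

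Of the 13 genes that KLF2 or KLF4 is known to lower, 9 rose and 1 fell, and the median log2 fold change was 0.67. Vcam1, which rose, is also among the venous markers. Icam1, which binds leukocytes, rose from 318 ± 35.2 to 689 ± 28.9 CPM (1.12 on the log2 scale, SE 0.0734, adjusted p = 1.9e-06). F3, tissue factor, had 4, 5, 8 and 3 counts in normoxia and 55, 51, 19 and 48 in hyperoxia, so that, like Klf15, it passed the filter on low counts only through hyperoxia (3.06, SE 0.416, adjusted p = 0.000251), and hyperoxia 3 was again the lowest of its group. Ace, the angiotensin-converting enzyme, fell from 3221 ± 148 to 2498 ± 129 CPM (-0.37, SE 0.0529, adjusted p = 0.000375).

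**Figure D5:**
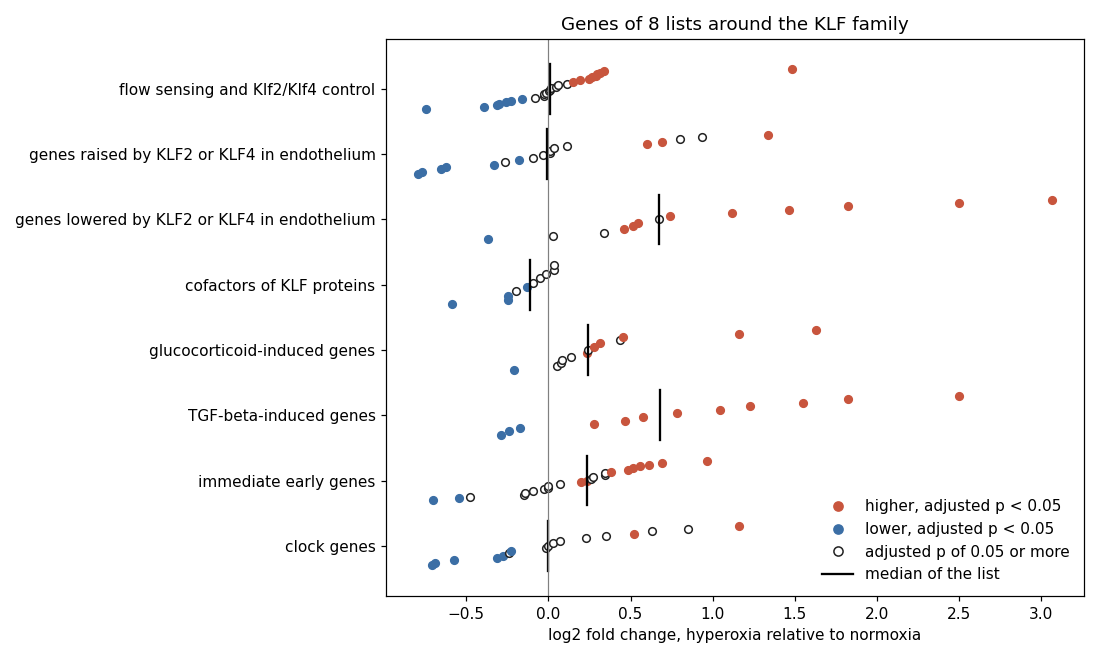
Log2 fold change of hyperoxia relative to normoxia of each tested gene in 8 lists, with the median of the list as a vertical line; filled points passed an adjusted p of 0.05. The genes that KLF2 or KLF4 lowers and the TGF-beta-induced genes have the rightmost medians, at 0.67 and 0.68. These lists share genes, among them Ctgf.

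Among the 10 cofactors through which KLF proteins act, 4 passed the test and all 4 fell (median log2 fold change -0.11). This share of 40% was near the 35.6% of all genes tested (17.1% downwards). At 50 CPM or more, 50.7% of all genes passed, 27.6% downwards. Sin3a, the scaffold that Klf9, Klf10, Klf11 and Klf13 bind, fell from 83.0 ± 4.77 to 55.3 ± 1.71 CPM (-0.59, SE 0.0525, adjusted p = 1.5e-05), and its paralog Sin3b fell by 0.25 (SE 0.0403, adjusted p = 0.000805) on the log2 scale. Ep300, an acetyltransferase, fell from 176 ± 20.6 to 148 ± 9.28 CPM (-0.24, SE 0.0806, adjusted p = 0.0362). Ctbp1, the partner of Klf3, measured 229 ± 8.91 and 234 ± 8.34 CPM (adjusted p = 0.635), and Kat2b, another acetyltransferase, 151 ± 8.25 and 149 ± 11.2 CPM (adjusted p = 0.870). Without normoxia 2, normoxia 4, hyperoxia 1 or hyperoxia 4, 2 cofactors passed, and Ep300 also missed the threshold without hyperoxia 2 (adjusted p up to 0.0987 over these 5 libraries).

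Hormone, growth factor and stimulus responses that are known to include members were described in the same way. Of the 13 genes tested in the glucocorticoid list, out of 15, 6 rose and 1 fell (median log2 fold change 0.24). The gene that fell was Nr3c1, the glucocorticoid receptor itself (-0.21, SE 0.0445, adjusted p = 0.00386). Among those higher were Sgk1, a kinase of ion transport (723 ± 27.5 to 878 ± 85.1 CPM), Dusp1, a MAP kinase phosphatase (568 ± 42.9 to 668 ± 56.7 CPM), and Mt1, a metallothionein (2.33 ± 0.908 to 7.22 ± 3.32 CPM). Fkbp5 (adjusted p = 0.592), Tsc22d3 (adjusted p = 0.156) and Zbtb16 (adjusted p = 0.815) did not pass. These and Nr3c1 are named after their values were seen. All 12 TGF-beta-induced genes passed, 9 upwards and 3 downwards (median 0.68), and 10 to 12 passed when a library was left out. The list shares Col1a1 with the fibroblast markers, which rose as given above, and Col1a1 was lowest of its group in hyperoxia 3 (35.6 CPM, against 71.2 to 94.8 CPM). The part of fibroblasts in the list was not tested. Ctgf, a matrix-associated growth factor that also stands among the genes lowered by KLF2 or KLF4, rose from 64.1 ± 8.95 to 227 ± 63.8 CPM. Smad7, the inhibitor of the pathway, fell from 249.8 ± 24.2 to 212 ± 11.6 CPM and Skil rose by 0.28 on the log2 scale. Dusp1 missed the threshold without normoxia 3 or 4 or hyperoxia 2 or 4 (adjusted p up to 0.0708), and Smad7 without normoxia 1 or hyperoxia 1 (up to 0.0592). The TGF-beta-inducible members Klf10 and Klf11 did not pass the test, as given above.

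Of the 23 immediate early genes, 9 rose and 2 fell (median log2 fold change 0.23). Maff, a small MAF factor, rose from 78.2 ± 14.9 to 153 ± 18.3 CPM and Fos, an AP-1 subunit, from 745 ± 55.3 to 855 ± 40.3 CPM, while Ier3 fell from 769.6 ± 72.2 to 474 ± 52.1 CPM. The AP-1 subunits Jun (adjusted p = 0.969) and Junb (adjusted p = 0.222) did not pass. Without hyperoxia 4, 7 genes of this list passed, and Fos missed the threshold without normoxia 1 or 3 or hyperoxia 4 (adjusted p up to 0.0744). Of the 17 clock genes, 2 rose and 6 fell (median -0.0040). Per1, a clock gene that glucocorticoids also induce, rose from 169.9 ± 44.2 to 379 ± 20.2 CPM (1.16, SE 0.154, adjusted p = 0.000218). Per3 (-0.71, SE 0.0978, adjusted p = 0.000274) and Tef (-0.28, SE 0.0823, adjusted p = 0.0225) fell, and Clock measured 103 ± 4.86 and 103 ± 2.87 CPM (adjusted p = 0.957). Without hyperoxia 2, 5 clock genes passed. The time of day of collection was not given in the sources used here.

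The genes whose profile over the 8 libraries was most like that of a member were sought for the 3 members with the largest fold changes, among protein-coding genes at or above 10 CPM on average. For Klf9 these were 1700017B05Rik and Mpp3, whose log2 CPM, relative to the normoxia mean, differed from that of Klf9 by a root mean square of 0.0679 and 0.0789. For Klf7 they were Zfp41 (0.106) and Slc16a13 (0.107). For Klf15 the nearest genes, Tnc (0.336) and Mrc2 (0.359), were less close.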

How the data were processed

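RNA of 8 libraries was sequenced. Per the submitters' processing notes, the authors used HISAT2 2.0.5, featureCounts 1.5.0-p3 and mm10. Strand and multi-mapping settings were not given in the sources used here. The authors deposited whole-number counts per gene and FPKM (counts per gene length and library total). Both tables hold the same 8 libraries, grouped by their titles, and 0 sample columns were left unused. FPKM served only for levels between genes.

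Counts were tested with edgeR 4.0.16 in R 4.3.3 (quasi-likelihood, TMM, filterByExpr, group as the only term, 15564 genes, Benjamini-Hochberg over all). Alternatives used DESeq2 1.42.0, limma 3.58.1, other scalings, filters and units, a replicate term, an alveolar type 2 score and leaving out each library. Tested on simulated data for this comparison, 151 of 200 changed genes among 15564 were called, with 5 false calls. In the real data 5535 genes passed, so the simulation does not measure false calls under so wide a change. Ratios were compared by exact permutation. Deposited positions equalled GENCODE M21 for 98.3% of genes.

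Members and lists were chosen with earlier results of these data known. Named list genes were the 3 with the highest mean CPM and the 2 with the largest change past the test. For the 3 members with the largest change, the 2 most alike genes are named. A list gene that this rule names is not reported here. Depth of 16098086 to 18300730 counts leaves Klf15 with few counts.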

Additional observations from a re-analysis of the deposited data

Results flagged for a closer look

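In 4 of 38 groups of 4 libraries, a library lay farther from the others than Dixon's 95% critical value of 0.829 allows, and chance gives about 1 in 20 such groups, or 1.9 here. Klf9 was at 107 CPM in hyperoxia 1, whereas hyperoxia 2 to 4 lay between 130.3 and 133 CPM. The Klf2 to Klf4 count ratio of normoxia 4 was 0.543, below 0.668 to 0.690 in the other normoxia libraries. The summed alveolar type 1 markers of hyperoxia 3 were at 165 CPM, whereas the rest of that group lay between 424 and 468 CPM. The summed mural markers of normoxia 1 were at 49.96 CPM, above 24.1 to 28.1 CPM in the other normoxia libraries.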

How the results depend on the processing

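All 10 members kept their direction and their side of the threshold under other size factors, total counts (median shift of all genes -0.027), no filter, DESeq2, limma-voom and log2 FPKM with either pseudocount. Klf15 could not be tested with a minimum mean of 1 CPM. Hence the count of members that also reached the fold of 1 was 0 there, as with log2(FPKM + 1), under which 330 of all genes reached it. The share of higher genes among those past the test was 52.4% with RLE size factors and 46.6% with total counts. Low counts limit Klf15, and the alveolar type 2 score, which separates the groups, limits all members, Klf15 included.

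With this score as a term, 0 members passed (0 higher, 0 with the fold of 1), while 256 of all genes did, 183 with the fold. Of the lists, 0 genes passed among other KLF and SP genes, flow sensing, genes raised by KLF2 or KLF4, cofactors, immediate early and clock genes, 2 among genes lowered by KLF2 or KLF4, 1 among glucocorticoid-induced and 1 among TGF-beta-induced genes. Log2 changes of opposite sign were 0.12 for Klf3, -0.18 for Klf15, -1.07 for Klf5, 0.27 for Klf16, 0.11 for Cdh5, -0.071 for Ctbp1, 0.12 for Ep300, 0.21 for Kat2b, -0.89 for Mt1, -0.00063 for Dusp1, 0.11 for Clock and -1.32 for Mrc2. The cause was not tested.

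Values near 0 also turned sign: Plvap -0.012 with total counts, Jun 0.0068 and Clock 0.0066 without a filter, and, on log2 FPKM, Jun 0.0025 and Clock 0.00091 (pseudocount 0.1, with or without a filter) or 0.00075 for Clock (pseudocount 1). With log2(FPKM + 0.1) and no filter, 3 other KLF and SP genes, 2 cofactors, 7 immediate early genes and 4 clock genes passed.

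Leaving out each library in turn, 6 to 7 members passed, 0 to 1 of them lower (1, Klf3, without normoxia 3), and the log2 change of Klf10 ranged from -0.014 (without hyperoxia 3) to 0.10. Others near 0 also turned sign, with ranges of -0.074 to 0.017 for Klf16, -0.0086 to 0.043 for Plvap, -0.048 to 0.017 for Kat2b, -0.041 to 0.041 for Jun and -0.029 to 0.014 for Clock. Counts ranged from 2 to 5 for other KLF and SP genes, 2 to 5 for cofactors, 7 to 14 for immediate early genes, 5 to 7 for clock genes and 10 to 12 for TGF-beta-induced genes.

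The labels do not say whether replicate numbers pair the libraries. Correlations of same-numbered deviations were 0.119, 0.0361, -0.125 and -0.14, and those of unlike numbers ranged from -0.247 to 0.279. These values cannot decide whether the libraries were paired. The SE of each member was smaller in the fit with the replicate number, for example 0.0786 (0.137 without it) for Klf7 and 0.0978 (0.140 without it) for Klf9. With the replicate number as a block, 6 members, 4792 of all genes and 10 TGF-beta-induced genes (9 higher, 1 lower) passed, and not every library correlated best with its own number.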
